A study of Homo sapiens with 183 samples.

Results

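The transcription factor KLF5 was inactivated with CRISPR-Cas9 in T3M-4, an established human cell line of a basal-like pancreatic ductal adenocarcinoma, and RNA was sequenced on day 5. The account covers 14 of the 183 libraries of the series, chosen by cell line and genotype: 4 labelled sgKLF5 and 4 labelled sgRosa in experiment 2, and 4 labelled sgKLF5 and 2 labelled sgRosa in experiment 1. The experiment is the first digit of the replicate number in the titles, and the experiments share no library. The labels do not say what this digit stands for, and their batch field gives all 14 libraries the same value. All of these T3M-4 cells carried Cas9 and received either single guide RNAs (sgRNAs) against KLF5 or, as the control, sgRNAs against the ROSA26 locus. The study used more than 1 sgRNA per knockout and the labels do not say which one a library received. Whether the 4 libraries of a group are separate cultures is not stated in the labels either, so the p-values measure the spread between these libraries, which may be technical. In experiment 2 the same fit held 2 sgCDK1, 2 sgRpa3, 3 sgRUVBL1 and 4 sgRUVBL2 libraries. The fit of experiment 1 also held 2 sgRpa3 libraries. CDK1 drives entry into mitosis and RPA3 is a subunit of the single-stranded DNA binding complex of replication, so these knockouts stand for the loss of a gene that dividing cells need. RUVBL1 and RUVBL2 are AAA+ ATPases that the study examined as KLF5 coactivators. RNA came from pools of transduced cells and not from clones, and fewer edited cells and less change per cell cannot be told apart.

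KLF5 is a zinc finger protein of the KLF family, which binds GC-rich and CACCC boxes in promoters and enhancers. It is expressed in the basal layer of stratified epithelia and in gut and airway epithelium. Pancreatic ductal adenocarcinomas fall into a classical class with endodermal and gastric gene expression and a basal-like class that expresses the keratins, serpins and junction proteins of squamous epithelium. The question of the comparison was which genes of a basal-like line depend on KLF5, and the direct contrasts with CDK1, RPA3 and RUVBL1 knockout ask how these genes behave when another essential gene is lost.

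Values are in TPM, a share of all transcripts of a library after division by transcript length, so they compare levels between genes as well as between libraries. A log2 fold change is the difference of mean log2(TPM + 1) between sgKLF5 and sgRosa, and because 1 TPM is added it understates the change of genes with few TPM. A gene was called, or said to have fallen or risen, when limma gave it a p under 0.05 after Benjamini-Hochberg adjustment over all genes tested. Where brackets after a gene hold a pair of bare numbers, these are its log2 fold change and its adjusted p, and a single bare number after a log2 fold change is its adjusted p. Depth is unknown, and between 11524 and 13116 genes reached 1 TPM in the 14 libraries. In experiment 1, sgKLF5 replicate 2 stood apart, with the fewest such genes and correlations of 0.93 to 0.958 with the other sgKLF5 libraries over 13110 genes, where the other libraries of that group reached 0.995. In experiment 2, sgRosa replicate 4 differed from its group to a smaller degree (0.978 to 0.983). Counts of experiment 1 are therefore given with and without that sgKLF5 library, as are single genes whose call rests on it. All 8 listed markers of basal-like pancreatic cancer cells were above 1 TPM in at least 1 of the 14 libraries, with KRT17 between 570.4 and 4983 TPM, and 5 of the 8 markers of classical cells stayed under 1 TPM in all 14. In experiment 2 the summed level of 5 endothelial markers, of which 2 stayed under 1 TPM, was 7.26 to 10.3 TPM in sgKLF5 and 3.37 to 6.12 TPM in sgRosa. The sum of 8 leukocyte markers, of which TYROBP was listed at 0 and most of the rest came from LCP1, was 322 to 329.6 TPM in sgKLF5 and 368 to 391 TPM in sgRosa.

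The libraries labelled sgKLF5 did not contain less KLF5 mRNA. KLF5 was at 533, 542, 604 and 583 TPM in the sgKLF5 libraries of experiment 2 and at 329, 339, 399.8 and 262 TPM in the sgRosa libraries. Every sgKLF5 library was above every control, and the log2 fold change was 0.78 (SE 0.11, limma, adjusted p = 1.73e-05). In experiment 1 KLF5 was at 334, 92.1, 482 and 465 TPM against 293 and 306 TPM, and sgKLF5 replicate 2 was the low value there. Its log2 fold change was -0.05 with all libraries (adjusted p = 0.961) and 0.49 without that library (0.0681). Cas9 cuts the gene and need not lower its mRNA, so the transcript does not check the labels, and protein was not measured in these files.

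Within the KLF family the calls went both ways. Of the 13 tested members, KLF5 included, 5 were called higher and 3 lower in experiment 2, beside 23.4% and 11.2% of all genes tested. With median-of-ratios scaling of the libraries the family turned to 3 higher and 5 lower, so it has no direction that holds under both scalings. Without sgRosa replicate 4 it had 2 higher and 4 lower. KLF13, a widely expressed member, was at 26.2, 27.6, 29.9 and 26.7 TPM in sgKLF5 and 50.8, 55.2, 60.9 and 32.5 TPM in sgRosa, with log2 fold changes of -0.80 (adjusted p = 0.000322) as deposited and -0.93 after scaling. KLF13 was also lower in experiment 1, by a log2 fold change of -1.46 without sgKLF5 replicate 2 (adjusted p = 0.00147) and -2.03 with it (0.121). KLF4, which acts in the differentiating layers of squamous epithelium, was 0.36 higher on the log2 scale (adjusted p = 0.0110). KLF2 and KLF9 were -0.69 and -0.30 (adjusted p = 0.00222 and 0.0492), and KLF6, KLF7 and KLF12 lay between 0.31 and 0.45, while KLF3, KLF10, KLF11, KLF15 and KLF16 were not called in experiment 2. Without sgRosa replicate 4, limma did not call KLF6, KLF7, KLF9 and KLF12 (adjusted p = 0.110, 0.0933, 0.0804 and 0.136). In experiment 1 none of the 13 tested members was called with limma when all libraries entered, and 5 were lower and 1 higher without sgKLF5 replicate 2.

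**Figure D1:**
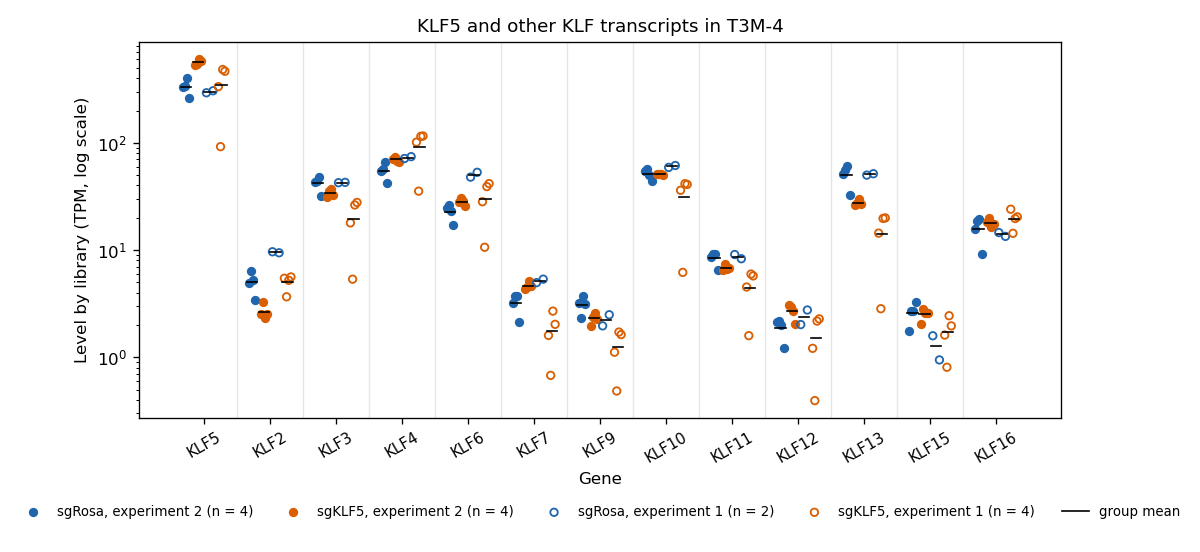
Levels of KLF5 and the other tested KLF genes by library (TPM, log axis), with sgKLF5 in orange and sgRosa in blue, filled for experiment 2 and open for experiment 1. KLF5 sits between 533 and 604 TPM in the sgKLF5 libraries of experiment 2, above all 4 controls, and for most of these genes the lowest open orange point is sgKLF5 replicate 2 of experiment 1.

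KLF5 knockout moved a large part of the measured transcripts in experiment 2, and single genes are read beside that background. Of 13246 genes tested, 4586 were called (34.6%), 3096 higher (23.4%) and 1490 lower (11.2%). The balance of higher and lower calls rests on the scaling. Over all genes tested the median log2 fold change was 0.10, and after median-of-ratios scaling it was -0.02, with 2222 genes higher and 2767 lower. Without sgRosa replicate 4, 2600 genes were higher and 1788 lower. The medians of gene groups below are therefore given relative to the median of all genes. Counts of gene lists in experiment 2 are read beside 23.4% higher and 11.2% lower. In experiment 1, 723 of 12636 genes were called (5.72%), 412 higher (3.26%) and 311 lower (2.46%). Without sgKLF5 replicate 2 the count was 4696 (37.0%), with 2237 higher (17.6%) and 2459 lower (19.4%). Of the 723 genes called with it, 715 were called in the same direction without it. Leaving out any of the other libraries of that experiment lowered the count, to 249 without sgKLF5 replicate 1, 376 without replicate 3, 436 without replicate 4, and 81 and 83 without sgRosa replicates 1 and 2.

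The share of genes called in experiment 1 that experiment 2, which has controls of its own, called in the same direction rested on sgKLF5 replicate 2 of experiment 1. Of the 12558 genes tested in both, 235 were lower in both (1.87%), 317 were higher in both (2.52%), and 5 were called in opposite directions. These were 77.8% of the 302 genes that experiment 1 called lower and 16.3% of the 1446 that experiment 2 did. For the higher genes the shares were 78.3% of 405 and 10.7% of 2959. Leaving out a library of experiment 1 other than sgKLF5 replicate 2 left 29 to 175 genes higher and 41 to 183 lower in both, the fewest without either sgRosa library. Without sgKLF5 replicate 2, 744 genes were lower and 1287 higher in both. These were 30.5% of the 2442 genes then called lower in experiment 1 and 57.8% of the 2225 called higher, and 173 had opposite calls. Across genes, which are not independent replicates, the log2 fold changes of the experiments had a Pearson r of 0.526 and a Spearman rho of 0.381, and 0.632 and 0.495 without that library.

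**Figure D2:**
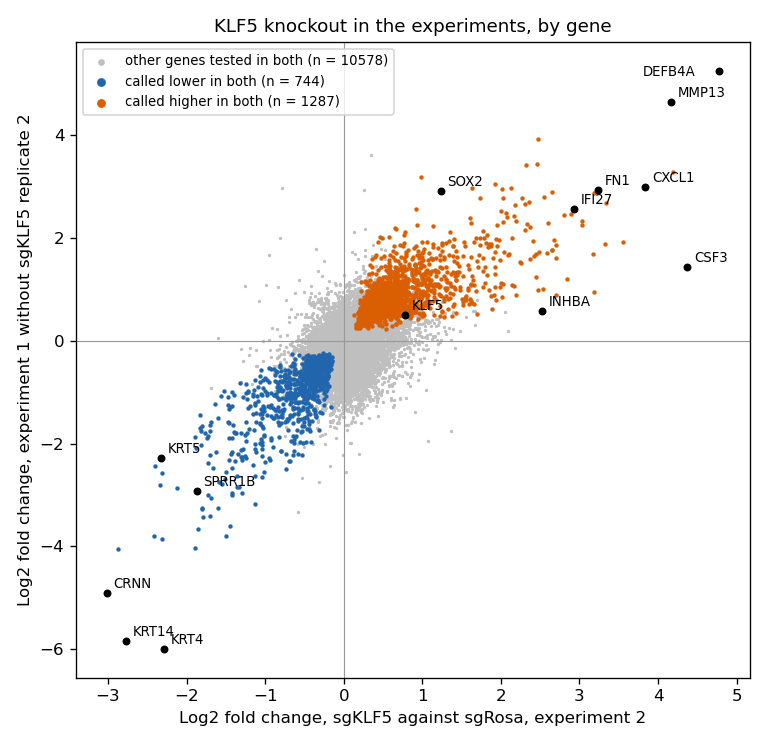
Log2 fold change after KLF5 knockout in experiment 2 (horizontal axis) and experiment 1 without sgKLF5 replicate 2 (vertical axis) for each gene tested in both, with genes called lower in both fits in blue and higher in both in orange. KRT14, KRT4 and CRNN lie at the lower left and DEFB4A, MMP13 and CXCL1 at the upper right, and CSF3 and INHBA lie further right than up.

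The squamous keratins were among the transcripts with the largest falls. Of the 13 basal and squamous keratins tested, 10 fell and 2 rose in experiment 2, and their median log2 fold change was -1.52 relative to all genes. In experiment 1, 10 of 14 fell and 1 rose (median -2.37 relative to all genes), and 11 fell without sgKLF5 replicate 2. KRT14, the type I partner of KRT5 in basal keratinocytes, was at 20.2, 25.7, 28.7 and 26.2 TPM in the sgKLF5 libraries of experiment 2 and 201, 218, 147 and 153 TPM in sgRosa. In experiment 1 it was at 11.1, 10.5, 7.48 and 8.64 TPM against 598 and 543 TPM. No library of one group came near the other group in either experiment, with log2 fold changes of -2.78 (SE 0.12, adjusted p = 1.64e-11) and -5.79 (SE 0.19, adjusted p = 2.29e-05). KRT5 itself was at 60.1, 64.9, 57.3 and 56.7 TPM against 325, 337, 305 and 255 TPM in experiment 2. Its log2 fold change was -2.33 there (SE 0.12, adjusted p = 1.33e-10) and -2.28 in experiment 1 without sgKLF5 replicate 2 (1.41e-07), or -2.57 with it (0.00590). KRT17, a keratin of hair follicles and wounded epidermis, was the most abundant of these keratins after KRT13 in experiment 2, at 865, 965, 1020.5 and 946 TPM against 2671, 2810.1, 2525 and 2167 TPM (log2 fold change -1.42, adjusted p = 1.53e-10). Its sgKLF5 libraries all lay well below the lowest control. KRT6A, which is induced in wounds, was at 599, 629, 637 and 600.3 TPM against 2209, 2321, 1604 and 1445 TPM (-1.59, 1.36e-08). KRT4 and KRT13, the pair of keratins of the suprabasal oral and esophageal epithelium, also fell. KRT4 was at 14.5, 23.0, 25.2 and 22.5 TPM against 123, 112, 98.4 and 90.7 TPM in experiment 2 and at 3.08, 0.739, 2.58 and 2.25 TPM against 239.8 and 219 TPM in experiment 1. KRT13 reached 9171 ± 591 TPM (SD, n = 4) in sgRosa and 3414 ± 144 TPM (SD, n = 4) in sgKLF5. KRT6A, KRT14 and KRT17 resemble KRT6B, KRT6C and KRT16 in sequence, and the authors' pseudo-alignment divided the reads they share, which adds an error that the spread between libraries does not hold.

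The simple epithelial keratins moved less and in both directions. Of the 6 tested in experiment 2, 4 fell and 2 rose. KRT8, KRT18 and KRT19, the keratins of ductal epithelium, had log2 fold changes of -0.97, -0.71 and -0.69 (adjusted p = 3.05e-09, 3.82e-06 and 1.47e-05). KRT23 went the other way, from 36.9, 35.6, 32.4 and 33.1 TPM in sgRosa to 211, 202, 188 and 191 TPM in sgKLF5 of experiment 2 (log2 fold change 2.49, adjusted p = 7.81e-09). It also rose in experiment 1 (1.62, adjusted p = 0.00213).

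**Figure D3:**
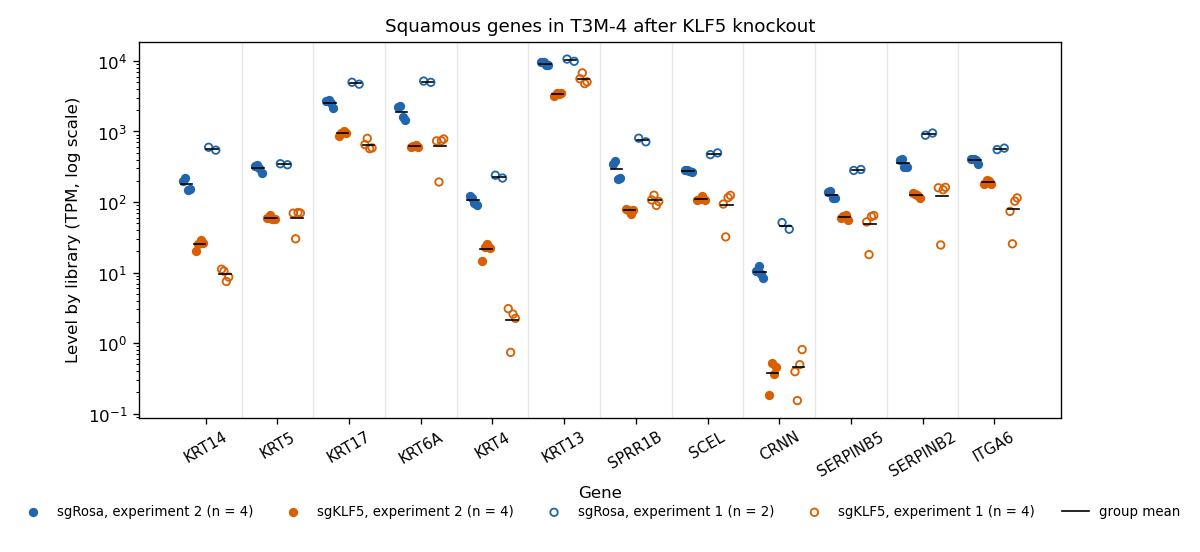
Levels by library (TPM, log axis) of 12 keratin, cornified envelope, serpin and adhesion genes, with sgKLF5 in orange and sgRosa in blue, filled for experiment 2 and open for experiment 1. In both experiments every sgKLF5 library lies below every sgRosa library for each of the 12 genes, and sgKLF5 libraries of KRT14 lie at 7.48 to 28.7 TPM against 147 to 598 TPM. The 12 genes were picked for display, and 7.37% of all genes tested in both experiments lay below without overlap. The desmosome genes DSP and PKP1, which are not drawn, overlapped in experiment 2.

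Cornified envelope genes, whose products are cross-linked under the membrane of the outer squamous layers, fell with the keratins. Of 15 tested in experiment 2, 11 fell and 0 rose by limma (2 at an unadjusted p under 0.05), with a median of -1.13 relative to all genes. In experiment 1, 11 of 17 fell and 1 rose, and 13 fell without sgKLF5 replicate 2. SPRR1B, a small proline-rich precursor of the envelope, was at 80.1, 77.9, 68.3 and 77.9 TPM in sgKLF5 and 351, 378, 213 and 218 TPM in sgRosa of experiment 2. Its log2 fold change was -1.87 (SE 0.19, adjusted p = 6.51e-07), and -2.84 in experiment 1 (0.000851). SCEL, which encodes sciellin, was at 106, 111.4, 121 and 106 TPM against 284, 284, 273 and 270.2 TPM (-1.31, adjusted p = 4.69e-08). TGM1, the transglutaminase that makes the cross-links, fell by 1.71 on the log2 scale (adjusted p = 2.16e-08). CRNN, a squamous differentiation gene of the same chromosomal cluster as the SPRR genes, had the largest fall by the rule for named genes. It was at 0.183, 0.518, 0.360 and 0.463 TPM against 10.4, 12.2, 9.68 and 8.48 TPM in experiment 2 and at 0.393, 0.153, 0.495 and 0.810 TPM against 51.1 and 41.2 TPM in experiment 1, so that the sgKLF5 libraries were all under 1 TPM.

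In experiment 2 the adhesion proteins that anchor basal cells fell by smaller amounts. Of the 9 tested genes of laminin-332 and the hemidesmosome, 6 fell and 0 rose in experiment 2 by limma (1 at an unadjusted p under 0.05), with a median of -0.61 relative to all genes. ITGA6, the integrin subunit that binds laminin-332, was at 180.2, 203, 202 and 183 TPM against 407, 409.6, 394 and 347 TPM (log2 fold change -1.02, adjusted p = 6.57e-09). LAMA3, its ligand's alpha chain, was at 37.7, 40.5, 40.7 and 34.4 TPM against 79.7, 92.9, 78.6 and 54.6 TPM (-0.96, 1.38e-05). In experiment 1 their log2 fold changes were -2.56 and -2.28 without sgKLF5 replicate 2 (adjusted p = 1.27e-05 and 1.77e-05) and -3.02 and -2.76 with it (0.0183 and 0.0290). Without it they had differences between the experiments of 1.54 and 1.32 (6.86e-06 and 0.000298). Of the 10 tested desmosome genes 4 fell (DSC3, DSG3, DSP and PKP1), and after scaling 9 did. DSG3, the desmosomal cadherin of the lower squamous layers, had a log2 fold change of -0.80 in experiment 2 (adjusted p = 1.19e-06). In experiment 1, 2 of the 10 desmosome genes fell, or 8 without sgKLF5 replicate 2 (median -1.19 relative to all genes). By contrast, 7 of 13 genes of adherens and tight junctions rose and 0 fell in experiment 2 by limma (1 at an unadjusted p under 0.05), and 1 fell after scaling. CLDN1 and CLDN4, claudins of the tight junction, rose by 0.80 and 0.55 on the log2 scale (adjusted p = 4.14e-08 and 0.000259). In experiment 1 CLDN4 rose as well (0.83, adjusted p = 0.0218) and CLDN1 had a log2 fold change of 0.04 without sgKLF5 replicate 2 (0.849) and -0.31 with it (0.618).

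Protease inhibitors of squamous epithelium fell as well, while its proteases changed in both directions. Of the 10 clade B serpins, which inhibit proteases inside and around epithelial cells, 7 fell and 1 rose in experiment 2, and 7 fell in experiment 1 (9 without sgKLF5 replicate 2). SERPINB5, known as maspin, was at 59.0, 63.0, 65.2 and 56.1 TPM against 138, 141, 113 and 114 TPM in experiment 2 (log2 fold change -1.04, SE 0.08, adjusted p = 7.94e-09). SERPINB2, an inhibitor of plasminogen activators, was at 133, 129, 125.5 and 114 TPM against 399, 403, 315 and 313 TPM (-1.50, 3.84e-10). In experiment 1 the log2 fold changes of SERPINB5 and SERPINB2 were -2.24 and -2.54 without sgKLF5 replicate 2 (adjusted p = 9.07e-07 and 8.69e-08) and -2.66 and -3.20 with it (0.0179 and 0.0403). Among the 7 tested kallikreins, the secreted serine proteases of the epidermis, KLK10, KLK11 and KLK13 fell (log2 fold changes of -1.73, -1.74 and -2.40) and the other 4 were not called. All 3 also fell in experiment 1. There KLK6 rose (1.55, 0.00681), and without sgKLF5 replicate 2 KLK7 rose as well (1.17, 0.00105). The median of the kallikreins in experiment 1 was 0.69 relative to all genes, against -0.45 in experiment 2. MMP28, or epilysin, a metalloproteinase of keratinocytes, was at 14.9, 24.1, 25.1 and 23.9 TPM against 111.03, 110.0, 122 and 102 TPM in experiment 2 and at 4.91, 5.60, 4.44 and 5.28 TPM against 81.4 and 86.2 TPM in experiment 1.

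By the rule for named genes, which takes the largest falls without overlap of libraries in either experiment, the remaining genes with the largest falls were of other kinds. No overlap in that direction in both experiments was found for 7.37% of all genes tested in both, and 169 genes also passed the threshold in both and the minimum of 5 TPM. IGFL1, a secreted protein of the insulin-like growth factor family, was at 22.7, 31.0, 29.0 and 31.0 TPM in sgKLF5 and 164, 159, 148 and 151 TPM in sgRosa of experiment 2 (log2 fold change -2.42, SE 0.09, adjusted p = 1.82e-12). OTOP3, a proton channel, and AQP5, the water channel of secretory epithelium, had log2 fold changes of -2.87 and -2.31. AQP5 was under 1 TPM in all 8 sgKLF5 libraries and between 5.17 and 7.22 TPM in the 6 sgRosa libraries. MFAP5, a protein of elastic microfibrils, had one of -1.89. HOTS, which is transcribed opposite H19, went from 186, 175, 234 and 205 TPM to 26.7, 40.1, 46.6 and 43.5 TPM, and reads from H19 may enter its value. LOC112267876 went from 1684, 1330.0, 1609.9 and 1483 TPM to 243, 331, 445 and 412 TPM (log2 fold change -2.12, adjusted p = 1.43e-09).

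The promoters of these genes were described by the sequence elements they hold. RefSeq promoters (GRCh38.p14, 250 bases before to 50 after the start) were matched by symbol for 10226 of the 13246 genes tested in experiment 2. They were searched on both strands for GGGNGNGG, a core shared by the GC and CACCC boxes that KLF and SP factors bind, and for TGANTCA, the AP-1 element, which reads the same on both strands. The letters of the motifs do not allow a match of one to overlap a match of the other. The AP-1 element was found in 7.76% of all 27305 promoters and 4.88% of those of tested genes. It was found in 31 of the 161 matched genes that were lower in both experiments (19.3%) and in 17 of the 220 that were higher in both (7.73%). The GC box was found in 55.1%, 73.0%, 77.0% and 69.5% of the same 4 groups. All 6 cornified envelope genes that fell in experiment 2 and had a matched promoter (SPRR1A, SPRR1B, SPRR2A, SPRR3, IVL and SCEL) held the AP-1 element. So did 2 of the 5 matched members that were not called lower, a group that includes members too low to be tested. Among clade B serpins it was in 4 of the 7 that fell and in 0 of the 3 that did not. These groups were chosen by the same contrasts as the falls, so the shares are a description and carry no test.

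The 150 bases before the start are printed for 6 genes that fell in both experiments, 5 with the AP-1 element and KRT5 without it, so that the position of the elements can be seen. Capitals mark matches to TGANTCA and GGGNGNGG (or its reverse complement), and each sequence runs 5′ to 3′ on the gene's strand.
SPRR1B (chr1:153031053-153031202, plus strand): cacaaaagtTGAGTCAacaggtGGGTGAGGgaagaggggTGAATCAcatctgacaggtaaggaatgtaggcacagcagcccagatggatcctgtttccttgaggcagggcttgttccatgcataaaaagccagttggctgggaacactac
SCEL (chr13:77535556-77535705, plus strand): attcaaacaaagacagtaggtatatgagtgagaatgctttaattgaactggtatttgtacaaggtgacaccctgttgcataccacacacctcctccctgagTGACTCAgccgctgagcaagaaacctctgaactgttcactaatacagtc
CRNN (chr1:152414264-152414413, minus strand): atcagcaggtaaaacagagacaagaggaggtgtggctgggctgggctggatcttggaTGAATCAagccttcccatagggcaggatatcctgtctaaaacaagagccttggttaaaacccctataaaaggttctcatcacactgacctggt
SERPINB5 (chr18:63476808-63476957, plus strand): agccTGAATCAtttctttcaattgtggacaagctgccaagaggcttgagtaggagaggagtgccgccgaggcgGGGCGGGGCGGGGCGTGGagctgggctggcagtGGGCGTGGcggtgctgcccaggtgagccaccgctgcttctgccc
LAMA3 (chr18:23872870-23873019, plus strand): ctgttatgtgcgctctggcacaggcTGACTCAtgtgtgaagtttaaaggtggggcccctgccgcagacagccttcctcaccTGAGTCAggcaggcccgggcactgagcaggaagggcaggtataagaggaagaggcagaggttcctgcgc
KRT5 (chr12:52520395-52520544, minus strand): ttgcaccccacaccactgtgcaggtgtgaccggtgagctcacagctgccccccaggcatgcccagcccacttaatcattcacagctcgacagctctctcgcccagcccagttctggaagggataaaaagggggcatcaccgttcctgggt
SPRR1B holds 2 AP-1 elements and LAMA3 also 2, while SERPINB5 holds 1 AP-1 element and 4 GC box matches, part of which overlap. KRT5 holds neither motif in this stretch, although its transcript fell in every sgKLF5 library, and these matches were not tested for binding.

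The Moffitt Basal-like signature, a list of genes specific to basal-like tumors, was split rather than uniformly lower in experiment 2. Of its 148 tested genes 56 fell and 46 rose, with a median of -0.19 relative to all genes. After scaling 68 fell and 36 rose, and without sgRosa replicate 4 the counts were 62 and 41. In experiment 1, 38 of 146 fell and 9 rose. Without sgKLF5 replicate 2 these counts were 69 and 25. Members that fell in both included FGFBP1, a carrier that releases fibroblast growth factors, at 160.0, 161, 154 and 157 TPM against 487, 480.1, 397 and 406 TPM in experiment 2. MMP13, a collagenase and also a member, rose instead. The Moffitt Classical signature had 32 lower and 53 higher of 137, and 40 lower and 42 higher after scaling. Of 12 secreted and surface markers of classical tumors 3 fell and 4 rose. MUC13, a transmembrane mucin, and AGR2, a disulfide isomerase of mucus cells, rose by 1.36 and 1.31 on the log2 scale (adjusted p = 2.07e-09 and 1.49e-08). AGR2 was at 2204, 2110.0, 1772 and 1830.1 TPM against 741, 666, 820.1 and 981 TPM. TFF2 and TFF1, the trefoil peptides of gastric mucosa, fell instead by 1.87 and 1.24 (adjusted p = 1.59e-07 and 6.50e-05). The list of direct KLF5 targets, which the authors drew from KLF5 degradation and binding data in the same line, had 57 lower and 3 higher of 85 tested in experiment 2 (median -0.84 relative to all genes). In experiment 1 it had 35 lower and 0 higher by limma (1 higher at an unadjusted p under 0.05), or 64 lower and 3 higher without sgKLF5 replicate 2. The list was drawn by the study from the same cell line, so its direction here is not independent evidence.

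Transcription factors of the squamous lineage changed in both directions. Of 19 tested squamous factors 6 fell and 4 rose in experiment 2. ZBED2, a repressor expressed in keratinocytes and basal-like tumors, was at 5.18, 7.41, 6.57 and 7.41 TPM against 17.2, 18.5, 12.7 and 11.2 TPM (log2 fold change -1.04, adjusted p = 1.42e-05) and also fell in experiment 1 (-2.74, 0.000789). SOX2, a factor of basal progenitors, rose from 12.1, 9.88, 15.6 and 13.1 TPM to 34, 31.2, 27.8 and 30.5 TPM (1.23, 3.47e-05). Its log2 fold change in experiment 1 was 2.91 without sgKLF5 replicate 2 (adjusted p = 4.83e-06) and 2.32 with it (0.0859). Of the 8 tested endodermal factors 3 rose. FOXA1, a pioneer factor of endoderm, was at 20.7, 21, 19.4 and 19.8 TPM against 8.0, 8.07, 9.40 and 4.93 TPM (1.33, 5.85e-07), and GATA6, which marks classical tumors, had a log2 fold change of 0.39 (0.0163).

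Chemokines, cytokines and innate defence genes were among the largest rises by the rule for named genes. Of 19 tested chemokines and cytokines 12 rose and 2 fell in experiment 2, with a median of 1.48 relative to all genes, and in experiment 1 7 of 16 rose and 4 fell (11 and 5 without sgKLF5 replicate 2). The members that fell in both were IL18, a cytokine of barrier epithelium, and IL1RN, the antagonist of the interleukin-1 receptor. CXCL1, which attracts neutrophils, was at 936, 889, 875 and 969 TPM in sgKLF5 and 64.7, 64.1, 76.7 and 50.3 TPM in sgRosa of experiment 2. In experiment 1 it was at 155, 83.3, 166 and 141 TPM against 17.5 and 19.2 TPM. The log2 fold changes were 3.84 (SE 0.11, adjusted p = 8.83e-14) and 2.78 (SE 0.29, adjusted p = 0.00217), and the groups did not overlap. CXCL8, which binds the same receptor family, was at 586, 529, 476 and 487 TPM against 81.4, 69.8, 78.2 and 88.2 TPM (2.70, 3.70e-12). CSF3, the granulocyte colony-stimulating factor, was at 68.9, 63.3, 63.6 and 75.3 TPM against 2.49, 2.16, 3.0 and 1.74 TPM in experiment 2 and at 4.22, 3.32, 4.56 and 4.84 TPM against 1.17 and 0.952 TPM in experiment 1, so it rose in both and to a higher level in experiment 2. CCL20, which attracts cells that carry CCR6, was at 372, 359.7, 388 and 411 TPM against 25.7, 21.6, 40.8 and 43.4 TPM (3.56, 7.09e-11). IL19, a cytokine of the IL-10 family, rose by 3.17 on the log2 scale. DEFB4A, which encodes the antimicrobial beta-defensin 2, had the largest rise by the rule for named genes. It was at 63.0, 58.5, 50 and 52.5 TPM against 0.446, 0.770, 1.59 and 1.75 TPM in experiment 2, and in experiment 1 it was at 35.7, 55.0, 38.8 and 36.8 TPM and listed at 0 in both controls. DEFB4B has nearly the same sequence, so the division of reads between the genes is uncertain. Of the 12 S100 proteins tested in experiment 2, 6 fell and 3 rose. S100A8 and S100A9, which form calprotectin, rose by 3.04 and 2.09 (adjusted p = 1.26e-11 and 5.41e-10), while S100A11 and S100A16 fell by 0.81 and 0.59. The other genes with the largest rises were VNN2, a pantetheinase of the vanin family, DIO2, which converts thyroxine to its active form, CP, the copper-carrying ferroxidase ceruloplasmin, and the interferon-induced IFI6. Their log2 fold changes in experiment 2 were 3.33, 3.18, 4.20 and 2.89. No overlap in the upward direction in both experiments was found for 7.42% of all genes tested in both, and 256 genes also met the other conditions of the rule.

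**Figure D4:**
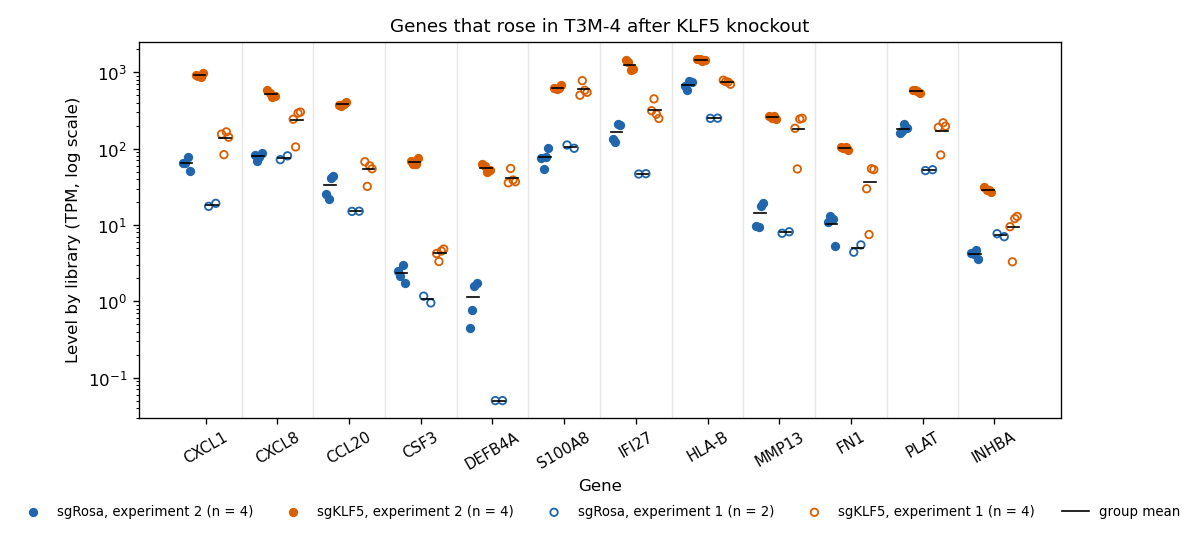
Levels by library (TPM, log axis, values drawn at no less than 0.05 TPM) of 12 chemokine, interferon-stimulated, antigen presentation and matrix genes, with sgKLF5 in orange and sgRosa in blue, filled for experiment 2 and open for experiment 1. For 11 of the 12 genes all sgKLF5 libraries lie above all sgRosa libraries in both experiments, the exception being INHBA, whose groups overlap in experiment 1. The 12 genes were picked for display, and 7.42% of all genes tested in both experiments lay above without overlap.

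Interferon-stimulated genes and antigen presentation genes rose as groups. In experiment 2, 17 of 19 interferon-stimulated genes and 11 of 12 HLA and antigen presentation genes rose. By limma 0 of either list fell (0 and 0 at an unadjusted p under 0.05). Their medians were 0.93 and 0.61 relative to all genes, and with scaling 16 and 9 rose. In experiment 1, 4 and 7 rose, or 10 and 10 without sgKLF5 replicate 2. IFI27, induced by type I interferon, was at 1448, 1384, 1073 and 1116 TPM against 131.8, 121, 213 and 204 TPM in experiment 2 (log2 fold change 2.93, adjusted p = 7.06e-09) and at 314, 449, 282 and 249 TPM against 46.5 and 47 TPM in experiment 1. MX2 and OAS2, antiviral effectors, rose by 2.26 and 1.66 in experiment 2. HLA-B, a class I heavy chain, was at 1473, 1490.4, 1396 and 1445 TPM against 653, 593, 766 and 750.0 TPM (1.08, 2.64e-07). HLA-C, another class I heavy chain, rose by 0.87 on the log2 scale, and the TAP1 peptide transporter by 0.72. HLA transcripts resemble each other, and the reference alleles used for counting may divide their reads unevenly.

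Secreted factors of the TGF-beta and matrix groups rose in experiment 2, and fewer of them were called in experiment 1. Of 15 genes of the BMP and TGF-beta response 10 rose and 3 fell, and in experiment 1 1 rose and 1 fell (6 and 1 without sgKLF5 replicate 2). INHBA, which encodes the activin A subunit, was at 31.6, 28.5, 28.5 and 26.7 TPM against 4.32, 4.21, 4.69 and 3.54 TPM in experiment 2 and 9.48, 3.29, 12.1 and 12.9 TPM against 7.68 and 7.02 TPM in experiment 1. TGFB2, a ligand, and TGFBR2, a receptor, rose by 1.85 and 1.2 in experiment 2. Of 11 mesenchymal genes 7 rose and 0 fell in experiment 2 by limma (0 at an unadjusted p under 0.05), with a median of 0.95 relative to all genes, and 1 fell after scaling. In experiment 1 limma called 0 of the 11 higher and 0 lower (2 and 2 at an unadjusted p under 0.05). Without sgKLF5 replicate 2 of that experiment, 3 rose and 1 fell. FN1, the matrix protein fibronectin, was at 105, 102, 106 and 96.4 TPM against 11, 13.3, 12 and 5.35 TPM (log2 fold change 3.24, adjusted p = 5.67e-10) and a log2 fold change of 2.94 in experiment 1 without sgKLF5 replicate 2 (0.000268), or 2.33 with it (0.113). CDH2, or N-cadherin, was low, at 4.21 ± 0.213 TPM (SD, n = 4) against 1.2 ± 0.304 TPM (SD, n = 4). The sum of 8 fibroblast markers, of which 5 stayed under 1 TPM, was 26.8 to 30.9 TPM in sgKLF5 and 25.4 to 36.7 TPM in sgRosa of experiment 2. Of 7 matrix metalloproteinases 4 rose and 1, MMP28, fell. MMP13 was at 271, 254, 267 and 247 TPM against 9.79, 9.54, 17.9 and 19.6 TPM in experiment 2, and MMP7, which epithelial cells secrete, rose by 1.80. Of 7 genes of the plasminogen system 5 rose and 2 fell. PLAT, the tissue plasminogen activator, went from 159.8, 168, 207 and 187 TPM to 584, 587, 566 and 539 TPM (1.66, 1.56e-11). Of 10 heparan sulfate genes 2 fell and 1 rose, beside 11.2% and 23.4% of all genes tested. SULF2, a sulfatase that edits heparan sulfate chains, fell from 15.3, 15.3, 17.2 and 12.4 TPM to 3.79, 3.3, 3.54 and 3.63 TPM (-1.81, 3.65e-10).

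Growth factor and signalling genes gave no common direction. Of all genes tested in experiment 2, 23.4% rose and 11.2% fell, and the EGF list lay at about these shares. Of the 9 EGF receptors and ligands, 2 rose (EPGN and ERBB3) and 1 fell (TGFA) in experiment 2, and 3 fell in experiment 1 (4 without sgKLF5 replicate 2). Without sgRosa replicate 4, 3 fell and 2 rose. TGFA was at 35.8, 37.5, 33.3 and 35.4 TPM against 61.5, 64.7, 49.7 and 36.3 TPM in experiment 2, where sgRosa replicate 4 lay within the sgKLF5 libraries, and at 18.8, 6.83, 21.6 and 21.8 TPM against 96.6 and 103 TPM in experiment 1. Of the 14 MAPK feedback genes 4 fell and 5 rose. The phosphatases DUSP5 and DUSP6 fell by 1.2 and 0.62 (adjusted p = 1.28e-08 and 2.58e-06) and the immediate early gene EGR1 rose by 1.61 (2.69e-05). Of 9 AP-1 subunits 4 rose and 1 fell, a balance that turned to 3 and 4 after scaling. JUN rose by 1.45 (2.58e-08) and FOS fell by 0.57 (0.000373), and the log2 fold change of FOS in experiment 1 was above 0, at 0.65 with all libraries (0.503) and 1.17 without sgKLF5 replicate 2 (0.00980). Notch genes rose in 6 of 13, and 1 fell after scaling, with the ligand JAG1 at 0.95 (5.48e-06) and the target HEY1 at 0.82 (2.38e-05). Of the 10 tested Wnt genes 3 rose and 2 fell, or 1 and 3 after scaling. The ligands WNT7A and WNT10A fell in both experiments (log2 fold changes of -0.83 and -1.14 in experiment 2).

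Cell cycle transcripts were lower by small and even amounts in experiment 2. Of 25 mitotic genes 20 fell (median -0.53 relative to all genes), and of 35 replication genes 21 fell (median -0.38). By limma 0 of either list rose (0 and 0 at an unadjusted p under 0.05). TPX2, a spindle assembly factor, was at 157, 164, 177 and 173 TPM against 265, 259, 237 and 227 TPM (log2 fold change -0.55, SE 0.06, adjusted p = 9.72e-07), and RRM1, a subunit of ribonucleotide reductase, had a log2 fold change of -0.46 (1.36e-06). In experiment 1, 1 mitotic gene and 0 replication genes fell by limma (10 and 6 at an unadjusted p under 0.05), and 17 and 10 fell without sgKLF5 replicate 2. CDKN1A, the cyclin-dependent kinase inhibitor p21, rose by 0.92 (9.22e-09), while of the 17 p53 targets 5 rose and 3 fell, or 3 and 4 after scaling. Before scaling 23.4% of all genes tested rose and 11.2% fell.

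Metabolic and stress groups differed from one another. Of 16 antioxidant genes 13 rose and 2 fell in experiment 2 (median 0.45 relative to all genes), and 8 rose in experiment 1 (11 without sgKLF5 replicate 2). GCLC, the rate-limiting enzyme of glutathione synthesis, was at 140.3, 139, 156 and 146 TPM against 64.6, 60.6, 87.1 and 78.0 TPM (1.01, 8.50e-08). The aldo-keto reductases AKR1C1 and AKR1C3 rose by 1.11 and 1.04, and AKR1B10 fell from 38.6, 38.2, 33.2 and 33.0 TPM to 16.4, 15.8, 17.1 and 14.7 TPM (-1.11, 1.26e-07). The AKR1C genes have closely similar sequences. Among 24 genes of cholesterol and fatty acid synthesis 8 fell and 3 rose in experiment 2, or 13 and 1 after scaling. In experiment 1 limma called 0 lower and 0 higher with all libraries (0 and 3 at an unadjusted p under 0.05), and 1 fell and 10 rose without sgKLF5 replicate 2. INSIG1, which retains the sterol-sensing SREBP complex in the endoplasmic reticulum, was at 19.1, 21.8, 22.3 and 22.8 TPM against 44.8, 39.3, 48 and 47.7 TPM in experiment 2 (-1.03, 4.14e-08) and at 11.9, 7.37, 14.1 and 13.7 TPM against 13.4 and 12.9 TPM in experiment 1, where it was not called. SCD, the stearoyl-CoA desaturase, had log2 fold changes of -1.31 (1.43e-06) and -0.15 in the experiments, the latter without sgKLF5 replicate 2 (0.550), or -0.55 with it (0.462). Of 15 stress response genes 5 rose and 1 fell, and of 5 clustered histone genes 3 rose, beside 23.4% higher and 11.2% lower of all genes tested. Hypoxia and glycolysis genes rose in 9 of 22, led by ADM, which encodes adrenomedullin (1.41, 5.90e-10), and after scaling 7 rose and 2 fell.

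**Figure D5:**
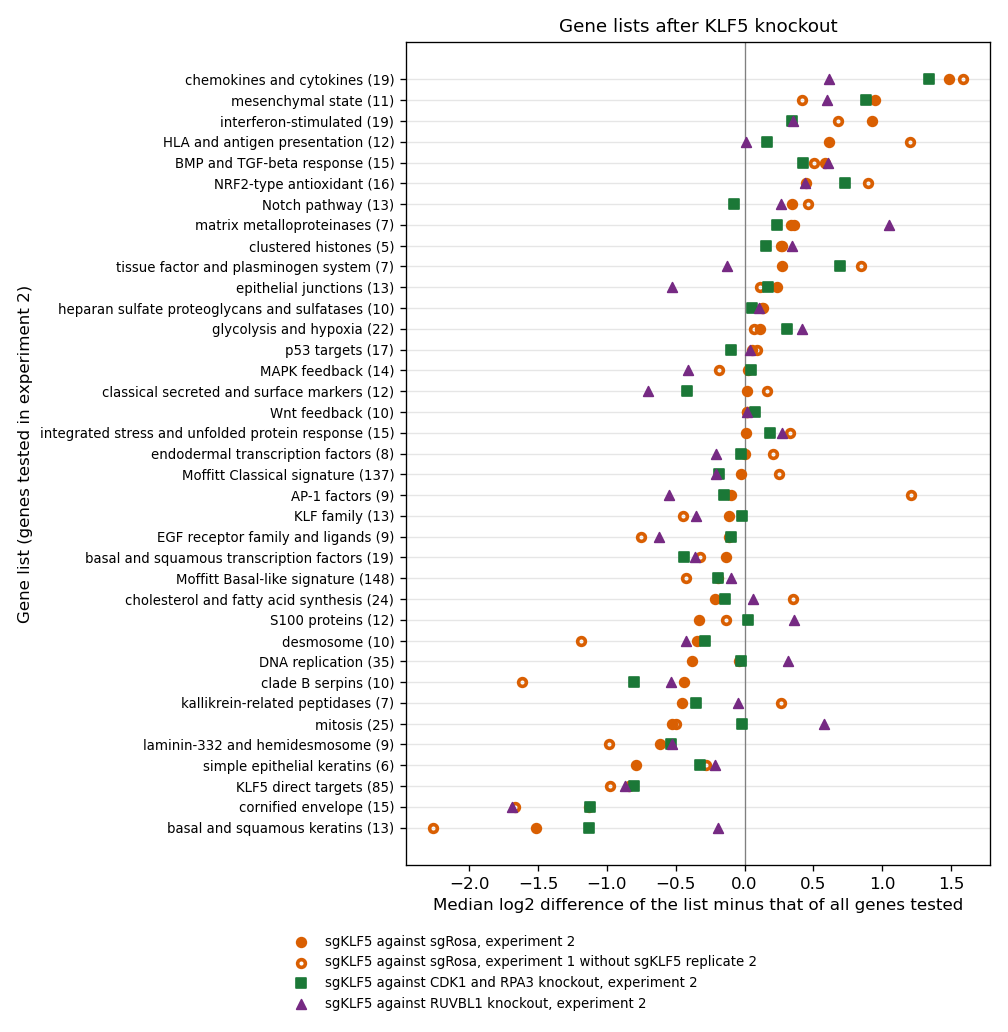
Median log2 difference of each gene list minus that of all genes tested, for sgKLF5 against sgRosa in experiment 2, the same in experiment 1 without sgKLF5 replicate 2, and sgKLF5 against the CDK1 and RPA3 knockouts and against the RUVBL1 knockout in experiment 2. Squamous keratins, cornified envelope genes and clade B serpins lie left of 0 and chemokines and interferon-stimulated genes right of 0 in the comparisons with sgRosa.

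The size of the effect differed between the experiments for part of the genes. The test of the difference itself, fitted over both experiments, passed the threshold for 2285 of 13110 genes (17.4%), the effect being higher in experiment 2 for 12.8% of all genes and lower for 4.66%, and for 215 when only the sgKLF5 and sgRosa libraries were fitted. Without sgKLF5 replicate 2 of experiment 1 it passed for 3776. The median difference of all genes was 0.33, and -0.04 after scaling. The test assumes 1 spread for all libraries, which sgKLF5 replicate 2 of experiment 1 does not share. The 5 genes with the lowest p were KRT14, CFTR, KRT4, CSF3 and ASPRV1. The fall of KRT14 was smaller in experiment 2, by 3.01 on the log2 scale (adjusted p = 1.41e-08), and that of KRT4 by 3.97 (4.70e-08). In the sgRosa libraries KRT14 was 570.4 ± 38.5 TPM (SD, n = 2) in experiment 1 and 179.7 ± 35.0 TPM (SD, n = 4) in experiment 2. The rise of CSF3 was larger in experiment 2 by 3.03 (7.45e-08). CFTR, a chloride channel of ductal cells, was at 6.19, 5.84, 6.14 and 4.84 TPM in sgKLF5 of experiment 2 and at or under 0.133 TPM in all sgRosa libraries, and at 0.292, 0.154, 0.618 and 0.522 TPM in sgKLF5 of experiment 1 (difference 2.22, 1.41e-08). In the sgCDK1, sgRpa3 and sgRUVBL1 libraries of experiment 2 CFTR was between 0.0904 and 0.310 TPM. The sgKLF5 libraries of experiment 2, where it was high, thus helped it past the filter on low values, and its p adds no support. ASPRV1, a protease of the stratum granulosum, fell in experiment 1, from 10.5 and 8.88 TPM to 1.17, 0.844, 1.66 and 1.1 TPM, and was at 0.679 ± 0.198 TPM (SD, n = 4) against 0.687 ± 0.193 TPM (SD, n = 4) in experiment 2 (difference 2.29, 2.07e-07). For SERPINB5 the difference was 1.62 (0.00975) and 1.2 without sgKLF5 replicate 2 (2.56e-06). For INHBA it was 2.34 (0.000592) and 1.95 (3.40e-07), and for KRT5 0.25 (0.555) and -0.05 (0.855). When only the sgKLF5 and sgRosa libraries were fitted, the differences of SERPINB5, ITGA6 and LAMA3 were not called by limma (adjusted p = 0.0917, 0.0680 and 0.107). What else differed between the experiments is not given in the labels.

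The direct contrasts in experiment 2 used the sgKLF5 libraries against other knockouts, without the sgRosa libraries, and were read for genes selected in experiment 1. Of the 302 genes that experiment 1 called lower and experiment 2 tested, 226 were lower and 9 higher in sgKLF5 than in the mean of the CDK1 and RPA3 knockouts, with a median log2 difference of -0.84. Over all genes 28.4% were called in that contrast, 15.3% lower and 13.1% higher, with a median of -0.03. Against the RUVBL1 knockout 245 were lower and 6 higher (median -0.98), where 45.8% of all genes were called, 30.5% lower and 15.3% higher (median -0.12). Of the 405 genes that experiment 1 called higher, 187 were higher and 18 lower than with CDK1 and RPA3 knockout, and 183 higher and 36 lower than with RUVBL1 knockout. When the genes were selected in experiment 1 without sgKLF5 replicate 2, 794 of 2442 genes were lower and 130 higher than with CDK1 and RPA3 knockout (median -0.15), and 724 of 2225 higher and 139 lower (median 0.15).

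For single genes the levels in the other knockouts lay near the control for part of the genes and near sgKLF5 for others. KRT5 was at 291, 264, 303 and 254 TPM in the 2 sgCDK1 and then the 2 sgRpa3 libraries, near the level in sgRosa, and at 71.6, 47.8 and 73.3 TPM in the sgRUVBL1 libraries, near that in sgKLF5. It was -2.20 on the log2 scale in sgKLF5 relative to CDK1 and RPA3 knockout (adjusted p = 4.57e-10) and -0.08 relative to RUVBL1 knockout (0.656, 95% interval from -0.36 to 0.20). KRT14 was at 68.1, 66.2 and 65.9 TPM in the sgRUVBL1 libraries and at 167, 159, 94.2 and 72.2 TPM in the sgCDK1 and sgRpa3 libraries, where the sgRpa3 libraries were the lower ones. It was lower in sgKLF5 than with RUVBL1 knockout (-1.38, 2.39e-07) and than with CDK1 and RPA3 knockout (-2.17, 4.65e-10). IGFL1 was at 239, 211, 102 and 90.0 TPM in the sgCDK1 and sgRpa3 libraries and at 581, 669 and 595 TPM in sgRUVBL1, so it stood above the control after RUVBL1 knockout and below it in sgKLF5. Its difference between sgKLF5 and sgRUVBL1 was the largest among the genes lower in experiment 1 (-4.40, SE 0.09, adjusted p = 1.08e-15). HSD11B1, which regenerates cortisol, and MDGA1, a membrane glycoprotein, followed with log2 differences of -3.20 and -2.77. CRNN, HOTS and LOC112267876 had the largest differences to CDK1 and RPA3 knockout (-3.53, -3.38 and -3.25 on the log2 scale). CRNN was at 35.9, 29.2, 7.15 and 6.02 TPM there, with the sgCDK1 libraries above the sgRpa3 libraries, so the mean of these knockouts spans unequal levels.

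CXCL1 was between 72.2 and 117 TPM in the sgCDK1, sgRpa3 and sgRUVBL1 libraries, and sgKLF5 exceeded CDK1 and RPA3 knockout by 3.36 and RUVBL1 knockout by 3.02 on the log2 scale (adjusted p = 8.64e-13 and 6.66e-12). CSF3 and DEFB4A behaved likewise, with differences of 3.70 and 4.51 to CDK1 and RPA3 knockout and 3.44 and 3.96 to RUVBL1 knockout. MMP13 stood 4.53 above RUVBL1 knockout. IFI27 was at 532, 411, 462 and 497 TPM in the sgCDK1 and sgRpa3 libraries and at 809, 750.1 and 834 TPM in the sgRUVBL1 libraries, all above the 131.8, 121, 213 and 204 TPM of sgRosa, and 9 of 19 genes of the list were higher in sgKLF5 than with CDK1 and RPA3 knockout and 7 than with RUVBL1 knockout, with 0 lower by limma in either contrast (0 and 2 at an unadjusted p under 0.05). OAS2 differed from CDK1 and RPA3 knockout by 0.16 (adjusted p = 0.364). HLA-B was at 1622, 1597 and 1570.5 TPM in the sgRUVBL1 libraries, and the difference to sgKLF5 was -0.14 (0.330). Of the 12 antigen presentation genes 4 were lower and 0 higher in sgKLF5 than with RUVBL1 knockout by limma (0 higher at an unadjusted p under 0.05). In that contrast 30.5% of all genes were lower and 15.3% higher, so the lower calls of this list lie near the share of all genes. Of the 19 chemokines and cytokines, 15 were higher and 2 lower in sgKLF5 than with CDK1 and RPA3 knockout. Against RUVBL1 knockout the list split, with 10 higher and 8 lower.

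Of the 25 mitotic genes, 22 were higher in sgKLF5 than in sgRUVBL1 libraries, and 2 were higher and 2 lower than with CDK1 and RPA3 knockout. TPX2 was at 139, 131 and 137 TPM in the sgRUVBL1 libraries and at 217, 204, 166 and 160.5 TPM in the sgCDK1 and sgRpa3 libraries. CDKN1A differed from RUVBL1 knockout by 0.04 (adjusted p = 0.681) and from CDK1 and RPA3 knockout by 0.75 (1.68e-07). Among cornified envelope genes 13 of 15 were lower in sgKLF5 than with CDK1 and RPA3 knockout and 12 than with RUVBL1 knockout, with 1 higher than with RUVBL1 knockout. Of the 13 basal and squamous keratins 9 were lower and 2 higher than with CDK1 and RPA3 knockout, and 6 lower and 1 higher than with RUVBL1 knockout. The shares of all genes called lower in these contrasts were 15.3% and 30.5%. Each of these contrasts and the comparison with sgRosa share the 4 sgKLF5 libraries of experiment 2.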

How the data were processed

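RNA-seq of T3M-4 cells was analysed for 4 sgKLF5 and 4 sgRosa libraries of experiment 2 and 4 sgKLF5 and 2 sgRosa libraries of experiment 1. The authors quantified single-end reads against hg38 with kallisto and deposited TPM by gene computed with tximport. Each library sums to a fixed total, so depth is unknown, and no counts could be tested. The table holds 19875 gene names and 27 libraries, each matched to a label by its title. Tables of other experiments were not used.

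Genes whose mean over the fitted libraries reached 1 TPM were tested on log2(TPM + 1) with limma 3.58.1 in R 4.3.3 (empirical Bayes with a trend), with Benjamini-Hochberg adjustment over all genes tested and a threshold of 0.05. All tests were two-sided. One fit held the 19 libraries of experiment 2 and another the 8 of experiment 1, among them 2 sgRpa3 libraries. The difference between the experiments was a contrast over all 27. Alternatives were a pseudocount of 0.1, no filter or one at 5 TPM, median-of-ratios scaling, a fit of the compared groups alone, a block by replicate number and leaving out each library. After the data were seen, scaling combined with leaving out the library that stood apart in each experiment was added, as was another selection of genes for the direct contrasts. The members and lists were chosen with earlier results of these data known.

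Named genes were the tested KLF family, the 12 largest falls and 12 largest rises in experiment 2 (called the same way in both experiments, no overlap of libraries in either, at least 5 TPM in the higher group), up to 4 members of each list by lowest p with 6 genes the study follows, the 5 lowest p for the difference, and the 3 largest differences each way in the direct contrasts. Where a few list members outside this rule are named to account for a count, they were chosen after their values were seen. The procedure was tested on simulated data with the spread of these fits and 200 changed genes. The noise was independent, with 1 spread per gene for all libraries, so a library that stands apart was not simulated. Far fewer genes were changed than were called in experiment 2, and genes at low levels were not among them. The simulated shares need not hold for these data. Log2 changes of 1 were recovered in 94% of cases in experiment 2 and 2.5% in experiment 1. For changes of 2 the shares were 99% and 58.5%. For the difference between the experiments 42.5% and 87.5% were recovered, and 11.5% and 9.33% of its calls were false. The result for 1 gene that the naming rule gives is not reported here.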

Additional observations from a re-analysis of the deposited data

Results flagged for a closer look

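Among the groups of 4 libraries of the 43 genes whose values are given by library, 5 (4.5% of these groups) had a single library far from the other 3. Chance gives 1 in 20 for independent groups. The genes share their libraries and most of these far values came from a single library, so the share cannot tell whether a library is odd. In experiment 1, sgKLF5 replicate 2 was the low library for KRT5 (30.1 TPM), KRT23 (163 TPM) and SERPINB2 (24.6 TPM), and the high one for DEFB4A (55.0 TPM). In experiment 2, sgKLF5 replicate 1 was the low library for MMP28 (14.9 TPM).

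The difference between the experiments is given for 10 genes, of which KRT14, CFTR, KRT4, CSF3 and ASPRV1 were named for the lowest p of that same test, so that their passing says nothing more. Of the other 5 it passed the limma threshold for 4, beside 17.4% of all genes, and SERPINB5, ITGA6 and LAMA3 did not pass with only the groups compared. On the log2 scale, experiment 2 minus experiment 1, it was 3.01 for KRT14, 3.97 for KRT4, 2.01 for ITGA6, 1.80 for LAMA3 and 1.62 for SERPINB5, whose falls were smaller in experiment 2. It was 3.03 for CSF3, 2.34 for INHBA and 2.22 for CFTR, whose rises were larger, and 2.29 for ASPRV1. Each value exceeds the median difference of all genes, 0.33.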

How the results depend on the processing

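In experiment 2, 3742 to 4970 genes passed when 1 library was left out and 4690 with the replicate number as a block, although scaling moved the lower calls to 2767, or 2632 without sgRosa replicate 4. Experiment 1 gave 446 genes (255 higher, 191 lower) with a minimum of 5 TPM, 457 (270 and 187) with only its own groups, 2538 (1201 and 1337) after scaling and 5814 (2795 and 3019) after scaling without sgKLF5 replicate 2. Leaving out 1 library gave 81 to 4696, with 30 to 2237 higher and 44 to 2459 lower. Genes called in both experiments numbered 701 lower and 748 higher after scaling, 680 and 728 when sgRosa replicate 4 was left out as well, 1256 and 1220 when sgKLF5 replicate 2 was, and 141 and 203 with only the groups compared, and leaving out 1 library gave 41 to 744 and 29 to 1287. The difference between the experiments passed for 3931 genes (1766 lower) after scaling, 215 (137 higher, 78 lower) with only the groups compared, and 210 to 4529 (143 to 3615 higher, 67 to 1053 lower) without 1 library. The cause was not tested.

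The replicate numbers did not pair the libraries, since same-numbered libraries correlated between -0.136 and 0.0558. With the number as a block, 4391 genes passed in experiment 1 (804 higher, 3587 lower), 7846 for the difference (6571 and 1275), and 687 were lower in both.

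Against RUVBL1 knockout scaling raised the higher calls to 3336 and left 15 genes that were higher in experiment 1 and lower there, or 65 with only the groups compared. Against CDK1 and RPA3 knockout the latter number was 32 with only the groups compared. Leaving out 1 library gave 4 to 7 and 9 to 15 genes of opposite direction against CDK1 and RPA3 knockout and 3 to 4 against RUVBL1 knockout. Selected without sgKLF5 replicate 2, genes lower in experiment 1 were lower in 794 and higher in 130 cases against CDK1 and RPA3 knockout and in 1177 and 183 against RUVBL1 knockout, and genes higher in experiment 1 were higher in 724 and lower in 139 and higher in 721 and lower in 320.

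Of the gene values under each alternative, 15 changed sign. Not all of these were near 0 in the reported fit, where the difference for KRT5 was 0.25 (SE 0.31). KLF5 in experiment 1 became 0.20 with scaling and 0.53 with scaling and without sgKLF5 replicate 2, and leaving out 1 library gave -0.299 to 0.493. CLDN1 gave -0.473 to 0.0365 without 1 library, the highest without sgKLF5 replicate 2, and 0.0711 when scaled as well. INSIG1 became 0.0468 with scaling and 0.0356 with scaling and without that library, and leaving out 1 library gave -0.280 to 0.0036. INHBA in experiment 1 became -0.32 with the block. The difference for KRT5 became -0.17 with scaling and -0.0523 to 0.351 without 1 library. KRT5 against RUVBL1 knockout became 0.0758 with scaling and -0.276 to 0.0282 without 1 library, and HLA-B 0.0193 with scaling. Of the other gene values, 65 lost the threshold, 34 of them when a library of experiment 1 was left out, and 19 passed it.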
